A study of Homo sapiens with 24 samples.

Results

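The 56 genes described here carry a human cell through mitosis: the transcription factors that drive their expression, the cyclin B and CDK1 switch, the spindle-pole kinases, the proteins that fold chromosomes, the kinetochore, the spindle checkpoint, the spindle itself, separase and its inhibitor, the ubiquitin enzymes of mitotic exit, and cytokinesis. They were taken by symbol from a fixed list that leaves out the kinesin motor family by name, among 19702 genes in the count table, and were arranged in 11 mitotic steps. CENPE stands among the kinetochore genes, although its product is itself a kinesin motor. Of the 56, 54 passed the filter on low counts and were tested in both cell lines. NUSAP1 and PRC1 did not pass, with 97 and 100 reads in all over 24 libraries.

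The RNA came from PC9 and H1975 cells, both established lines of EGFR-mutant human lung adenocarcinoma. Each line was left as a control, given almonertinib (a covalent inhibitor of mutant EGFR; 2 nM in PC9 and 1 nM in H1975), given paclitaxel (which stabilises microtubules; 0.3 nM in PC9 and 1 nM in H1975), or given both drugs, all for 24 h. That made 8 groups of 3 libraries. The doses within the combination are not given in the sources used here, and the vehicle of the controls is not named. The single-drug doses differed between the lines. The labels number the libraries as repeats without saying that these were separate cultures, so the spread behind each p-value is that of libraries and may be technical only.

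Mitosis begins when cyclin B binds CDK1 and CDC25 phosphatases activate the pair. Condensins and topoisomerase II then compact the chromosomes, microtubules attach to kinetochores, and the spindle checkpoint holds the ubiquitin ligase APC/C in check until every kinetochore is attached. Once released, CDC20-bound APC/C destroys securin and cyclin B, separase opens the cohesin rings, and the cell divides. Most of these transcripts peak in late G2 and mitosis. In bulk RNA a smaller share of cells in mitosis and less of a transcript per cell cannot be told apart.

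Library totals ran from 14232299 to 24245314 counts. Epithelial marker genes averaged 94.1 to 9360 CPM (counts scaled to library size) over the groups, whereas fibroblast markers had a median of 0 CPM and leukocyte markers of 0.0158 CPM. Several libraries stood apart from their group in how their counts followed the GC content of the transcripts. Over all tested genes of a line, the deviation of a library from the line's mean correlated with transcript GC content at Spearman 0.799 in H1975 almonertinib library 1 against -0.629 and -0.474 in the other two of that group. The value was -0.642 in H1975 control library 3 against 0.308 and 0.412, -0.487 in H1975 paclitaxel library 1 against 0.054 and 0.169, and 0.499 in PC9 almonertinib library 3 against -0.287 and -0.284. In PC9 it also differed between groups, at 0.166 to 0.381 in the controls, -0.6 to -0.425 under paclitaxel and -0.021 to 0.33 under the combination. The mitochondrial share of counts was 0.475% to 0.855% under almonertinib in PC9 and 1.23% to 1.39% in its controls. The calls against the control that changed without PC9 almonertinib library 3, and the H1975 counts without the 3 libraries named there, are given below.

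The promoters of many mitosis genes share a pair of short elements: the cell cycle genes homology region (CHR), read by the MuvB complexes, and the CCAAT box, bound by NF-Y. RefSeq promoters on GRCh38.p14, from 250 bases before to 50 bases after each start, were matched for 46 of the 56 genes. FOXM1, AURKA, PBK, CDCA2, BIRC5, KNL1, BUB3, TTK, TPX2 and UBE2C had no entry. The letters TTTGAA, searched on both strands, were present in 29 of the 46 promoters (63.0%) against 15.4% of all 27305 promoters, and TTCGAA in 3 (6.5%) against 1.5%. CCAAT, also on both strands, was present in 33 (71.7%) against 35.7%. Either CHR form together with CCAAT was found in 24 (52.2%) against 6.6% of all promoters. These motifs do not overlap in their letters. A match describes these letters and is not a measured site.

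The 200 bases upstream of the start of 6 genes are printed 5′ to 3′, with CCAAT, the CHR form TTTGAA and the reverse complement of each in capitals. CCNB1, PLK1 and CDC20 were chosen because their RNA was lower under every treatment in PC9, and TOP2A, CENPF and ANLN because theirs was higher under each single drug. The stretches lie at chr5:69166950-69167149 on the plus strand for CCNB1, chr16:23678689-23678888 on the plus strand for PLK1, chr1:43358781-43358980 on the plus strand for CDC20, chr17:40417897-40418096 on the minus strand for TOP2A, chr1:214602995-214603194 on the plus strand for CENPF and chr7:36389662-36389861 on the plus strand for ANLN.
CCNB1: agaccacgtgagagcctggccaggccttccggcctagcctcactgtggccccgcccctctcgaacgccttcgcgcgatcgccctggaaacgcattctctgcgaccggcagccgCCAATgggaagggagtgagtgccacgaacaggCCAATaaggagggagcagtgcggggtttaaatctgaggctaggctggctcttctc
PLK1: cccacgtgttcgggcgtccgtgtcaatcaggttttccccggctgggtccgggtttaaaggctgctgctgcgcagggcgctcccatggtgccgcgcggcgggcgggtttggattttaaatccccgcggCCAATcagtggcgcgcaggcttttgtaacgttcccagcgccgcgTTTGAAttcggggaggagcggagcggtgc
CDC20: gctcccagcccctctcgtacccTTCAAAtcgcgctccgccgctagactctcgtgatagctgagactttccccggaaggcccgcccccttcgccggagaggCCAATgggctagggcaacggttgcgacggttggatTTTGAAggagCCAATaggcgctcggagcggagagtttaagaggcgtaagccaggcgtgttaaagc
TOP2A: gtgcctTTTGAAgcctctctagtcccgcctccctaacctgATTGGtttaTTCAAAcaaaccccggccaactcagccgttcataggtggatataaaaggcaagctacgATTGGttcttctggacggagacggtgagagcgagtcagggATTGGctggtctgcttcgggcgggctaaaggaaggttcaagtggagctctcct
CENPF: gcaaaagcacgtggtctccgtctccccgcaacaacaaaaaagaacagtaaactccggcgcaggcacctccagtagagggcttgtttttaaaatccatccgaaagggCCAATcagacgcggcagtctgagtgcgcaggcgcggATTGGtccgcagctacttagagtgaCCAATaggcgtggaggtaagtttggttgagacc
ANLN: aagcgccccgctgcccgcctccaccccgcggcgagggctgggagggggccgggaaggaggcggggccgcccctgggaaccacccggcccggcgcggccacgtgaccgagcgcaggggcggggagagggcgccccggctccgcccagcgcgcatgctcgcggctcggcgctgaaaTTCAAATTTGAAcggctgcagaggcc

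Both kinds of gene carried these letters. PLK1, CDC20 and TOP2A held TTTGAA or its complement together with CCAAT in the printed stretch, CCNB1 and CENPF held CCAAT there without TTTGAA, and ANLN held TTTGAA without CCAAT. Among members called higher under almonertinib in PC9, 14 of 18 with a promoter held a CHR form and 9 held CCAAT. Among those called lower, 7 of 15 held a CHR form and 12 held CCAAT. Under paclitaxel the shares were 19 of 24 and 14 of 24 for members called higher, and 7 of 11 and 10 of 11 for members called lower. Under the combination they were 2 of 5 and 3 of 5 for members called higher, and 11 of 22 and 18 of 22 for members called lower. There the CHR form was not more frequent among the higher members. These counts describe the members and were not tested.

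In PC9 the mitosis genes did not move as a block under either single drug, and more of them fell than rose under the combination. Under almonertinib 21 of 54 rose and 21 fell by edgeR's quasi-likelihood test at a Benjamini-Hochberg adjusted p under 0.05, with a median log2 change of -0.07. Of all 12796 genes tested, 56.7% were called in that comparison, 28.9% higher and 27.8% lower. Under paclitaxel 27 rose and 15 fell, with a median of 0.39, where 55% of all genes were called, 27% higher and 28% lower. Under the combination 5 rose and 28 fell, with a median of -0.50, where 50.7% of all genes were called, 24.7% higher and 26% lower. Without almonertinib library 3 the almonertinib counts were 23 higher and 21 lower, with calls gained for SPC24, PBK and BUB1 and lost for MELK. Of the 54 log2 changes under the combination 38 lay below 0 and 16 above. The medians of all genes lay at 0.03, -0.01 and 0.00. The shares called among the members, 77.8% under each single drug and 61.1% under the combination, stood above those of all genes. The comparisons share their control libraries. Below, changes are log2 fold changes ± SE from the same edgeR test, and values per library are CPM scaled with TMM factors.

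**Figure D1:**
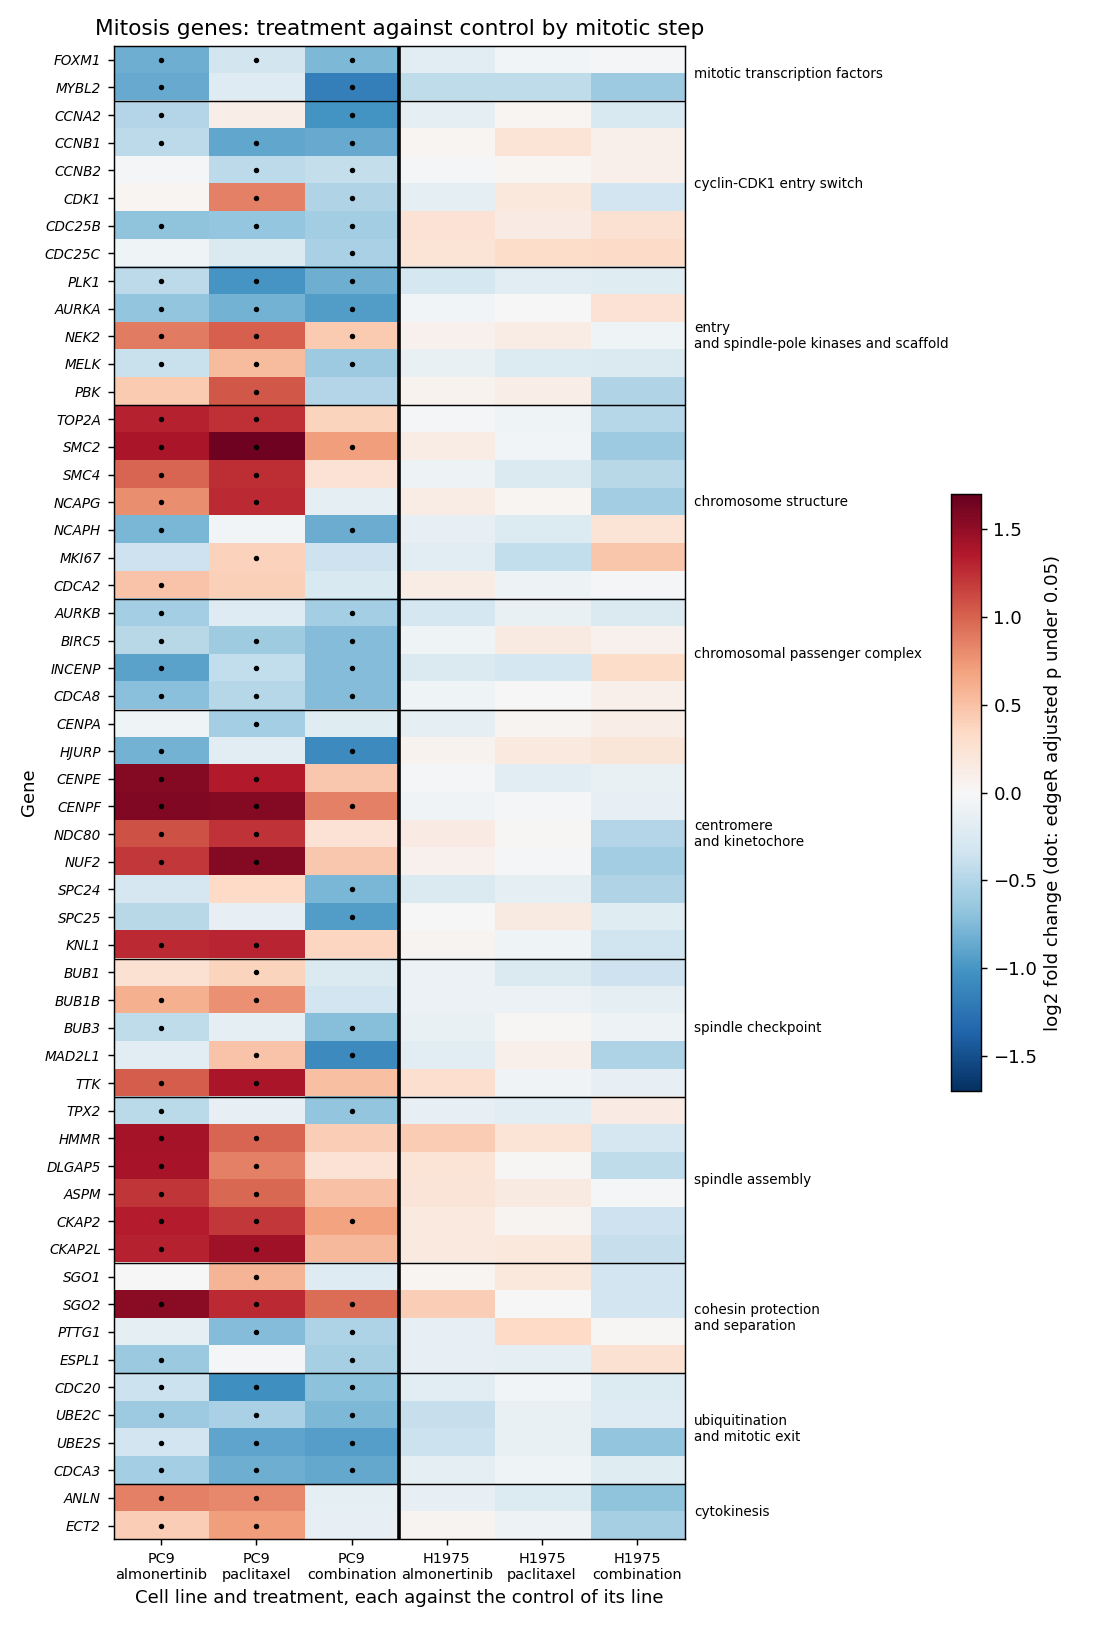
Log2 change against the control of the line for the 54 tested mitosis genes (rows, grouped by mitotic step) in the 6 drug groups (columns), with a dot where edgeR's adjusted p was under 0.05. In PC9 the single-drug columns hold 21 and 27 higher and 21 and 15 lower calls, the combination column holds 5 higher and 28 lower, and the H1975 columns hold no dot.

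Levels within the set spanned several orders of magnitude. Per kilobase of transcript, the most abundant in PC9 controls was UBE2S at 823 CPM per kb, followed by UBE2C at 361, MYBL2 at 326 and CDC20 at 194. H1975 controls had the same 4 genes in front, at 1610, 501, 334 and 296 CPM per kb. The least abundant tested members of PC9 controls were KNL1 at 0.2 and CENPE at 0.201 CPM per kb, below SGO2 at 0.402 and ASPM at 0.585. NUSAP1 and PRC1 lay lower still, at 0.0718 and 0.0441 CPM per kb. Their exons share 62.2% and 57.6% of bases with another gene annotated on the same strand in GENCODE v29 (AC087721.2 for NUSAP1, AC068831.7 for PRC1), and reads in such bases can be left uncounted as ambiguous. Whether that set their low counts was not tested, so nothing is said of either gene.

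FOXM1 and MYBL2, the transcription factors that act with MuvB on mitotic promoters, were lower under almonertinib and under the combination than in the controls in PC9, and neither passed between these treatments. FOXM1 (chr12:2857681-2877155, minus strand) was measured at 193, 169 and 175 CPM in the control libraries, 96, 101 and 107 under almonertinib, 136, 142 and 156 under paclitaxel and 107, 105 and 108 under the combination. All 9 treated libraries lay below the 3 controls, with paclitaxel in between. FOXM1 fell under almonertinib (-0.83 ± 0.08, adjusted p = 5.41e-07), under paclitaxel (-0.31 ± 0.08, adjusted p = 0.00542) and under the combination (-0.77 ± 0.08, adjusted p = 1.69e-06). MYBL2 (chr20:43667019-43716496, plus strand), the more abundant of the pair, was measured at 976, 798 and 869 CPM in the control libraries, 443, 435 and 578 under almonertinib, 699, 737 and 836 under paclitaxel and 404, 399 and 398 under the combination. The almonertinib and combination libraries lay below every control, whereas the paclitaxel libraries overlapped the controls. MYBL2 fell under almonertinib (-0.86 ± 0.12, adjusted p = 1.24e-05) and under the combination (-1.16 ± 0.12, adjusted p = 8.86e-07), while its paclitaxel value of -0.21 did not pass (adjusted p = 0.129). Without the trend over transcript length and GC content in each library, which was removed with a spline as an alternative, FOXM1 was -0.14 under paclitaxel and no longer called. Part of the FOXM1 exons (15.9%) lies opposite ITFG2, and the strand counted is not given in the sources used here, so reads of these genes cannot be told apart there.

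The cyclin and CDK1 switch split by drug. CCNB1 (chr5:69167010-69178245, plus strand), which encodes cyclin B1, the activating partner of CDK1, stood at 136, 132 and 138 CPM in the control libraries, 96.3, 107 and 95.5 under almonertinib, 76.7, 71 and 71.6 under paclitaxel and 78.6, 76.1 and 72.6 under the combination in PC9. Each treated group lay wholly below the controls, and paclitaxel and combination libraries shared a range below those of almonertinib. CCNB1 fell by all 3 tests (-0.45 ± 0.08, adjusted p = 0.00014 under almonertinib; -0.89 ± 0.08, adjusted p = 4.05e-07 under paclitaxel; -0.86 ± 0.08, adjusted p = 2.98e-07 under the combination). CDK1, the kinase itself, whose library values are given after they were seen, stood at 40.3, 41.5 and 37.1 CPM in the control libraries, 40.4, 49.5 and 31.7 under almonertinib, 73.6, 68.9 and 73.6 under paclitaxel and 25.2, 33 and 26.7 under the combination. Its paclitaxel libraries lay above and its combination libraries below every control, while those of almonertinib overlapped the controls. CDK1 rose under paclitaxel (0.86 ± 0.13, adjusted p = 8.15e-05) and fell under the combination (-0.51 ± 0.14, adjusted p = 0.00549), with 0.03 under almonertinib (adjusted p = 0.88).

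With the trend removed, CDK1 was -0.56 under almonertinib and called lower, and 0.19 under paclitaxel and not called, so its direction under a single drug depended on that choice. Of the other members of the switch, CDC25B, a phosphatase that activates CDK1, fell under all 3 treatments (-0.69, -0.66 and -0.59). CCNA2, cyclin A2 of S phase and early mitosis, fell under almonertinib (-0.50) and the combination (-1.01) and stood at 0.12 under paclitaxel, which was -0.26 and called lower with the trend removed. CCNB2, the other B-type cyclin here, fell under paclitaxel (-0.44) and the combination (-0.41), and CDC25C only passed under the combination (-0.55). All 6 members of the step were lower under the combination.

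The entry and spindle-pole kinases also divided. PLK1 (chr16:23677656-23690367, plus strand), the polo kinase that promotes mitotic entry and kinetochore attachment, stood at 197, 176 and 193 CPM in the control libraries, 130.5, 134 and 153 under almonertinib, 92.5, 85.5 and 103 under paclitaxel and 113, 102 and 108 under the combination in PC9. Each drug group lay below the controls, and the paclitaxel and combination libraries lay below those of almonertinib. PLK1 fell under almonertinib (-0.45 ± 0.09, adjusted p = 0.00065), paclitaxel (-1.01 ± 0.09, adjusted p = 6.49e-07) and the combination (-0.83 ± 0.09, adjusted p = 2.43e-06). AURKA, which matures the spindle poles, fell by -0.67, -0.81 and -0.95 in the same order. NEK2, a centrosome-splitting kinase, went the other way and rose under all 3 treatments (0.88, 1.01 and 0.44), from a low level of 6.65, 8.01 and 6.23 CPM in the controls to 13.5, 14.4 and 14.2 CPM under paclitaxel. The combination call of NEK2 was lost without combination library 2 (0.38), without control library 1 (0.40) and without control library 3 (0.36). MELK, a kinase of proliferating cells, fell under almonertinib (-0.38) and the combination (-0.62) and rose under paclitaxel (0.54), and its almonertinib call was lost without almonertinib library 2 or 3 or control library 1 or 2 (-0.37, -0.28, -0.33 and -0.35). PBK, a serine/threonine kinase of mitotic cells, rose under paclitaxel (1.05) and did not pass under almonertinib (0.44) or the combination (-0.50). Its almonertinib value was called without almonertinib library 3 (0.57) and in a paired fit with the repeat number as a block (0.45). With the trend removed, 2 members of the step were called higher under paclitaxel, so NEK2, MELK and PBK did not all keep that call.

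Of the 7 genes that shape the chromosomes, 5 rose under each single drug. NCAPH fell and MKI67 did not pass under almonertinib, and NCAPH and CDCA2 did not pass under paclitaxel. With the trend removed, 4 members of the step were higher and 1 lower under almonertinib, and 5 higher and 0 lower under paclitaxel. NCAPH (chr2:96335787-96373845, plus strand), which bridges the SMC arms of condensin I, stood at 81.7, 62.3 and 63.7 CPM in the control libraries, 42.9, 41.3 and 37.7 under almonertinib, 67.5, 64.9 and 68.7 under paclitaxel and 39.1, 39.1 and 38.9 under the combination in PC9. Its almonertinib and combination libraries lay below every control, and its paclitaxel libraries within their range. NCAPH fell under almonertinib (-0.78 ± 0.10, adjusted p = 7.12e-06) and the combination (-0.85 ± 0.10, adjusted p = 4.04e-06), and was -0.05 under paclitaxel (adjusted p = 0.709). The SMC subunits that NCAPH joins behaved otherwise: SMC2, chosen after its values were seen, stood at 4.28, 5.25 and 2.55 CPM in the control libraries, 12.1, 12.6 and 7.15 under almonertinib, 12.6, 13.6 and 11.9 under paclitaxel and 6.59, 7.70 and 5.86 under the combination. Every treated library lay above every control, and the combination libraries lay below those of paclitaxel. SMC2 rose under almonertinib (1.38 ± 0.24, adjusted p = 0.000111), paclitaxel (1.65 ± 0.23, adjusted p = 3.91e-05) and the combination (0.71 ± 0.24, adjusted p = 0.0214), and SMC4 under almonertinib (0.99) and paclitaxel (1.25) but not the combination (0.25).

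TOP2A, the topoisomerase that untangles sister DNA and the target of etoposide, stood at 27.1, 23.3 and 14 CPM in the control libraries, 64.5, 55.7 and 40.3 under almonertinib, 52.6, 50.7 and 49.8 under paclitaxel and 26.6, 34.4 and 24.1 under the combination, given after its values were seen. Almonertinib and paclitaxel libraries lay above all controls, and the combination libraries overlapped them. TOP2A rose under almonertinib (1.30 ± 0.20, adjusted p = 3.79e-05) and paclitaxel (1.24 ± 0.20, adjusted p = 0.000104) and was 0.37 under the combination (adjusted p = 0.13). NCAPG, the HEAT-repeat subunit of condensin I, rose by 0.79 and 1.26 under the single drugs. MKI67, the surface protein that keeps mitotic chromosomes apart, rose under paclitaxel (0.39) and stood at -0.35 under almonertinib and -0.35 under the combination, neither called, although its libraries in both groups lay below every control. In the paired fit, which blocks on the repeat number in all PC9 groups, the almonertinib value was -0.37 and called. The labels do not say that a number marks a shared culture. The paclitaxel call of MKI67 was lost without control library 2 or 3 or paclitaxel library 1 or 3 (0.39, 0.34, 0.39 and 0.40). CDCA2, a phosphatase-targeting subunit, rose under almonertinib (0.49), a call that was lost without almonertinib library 1 or 2 or control library 2 or 3 (0.38, 0.42, 0.43 and 0.35). The combination call of SMC2 was lost without combination library 2 (0.62), without control library 3 (0.48) and with the trend removed (0.34). Exons of NCAPG (33.1%) and SMC4 (25.6%) lie opposite other genes, so antisense reads cannot be told apart there.

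All 4 members of the chromosomal passenger complex, which corrects wrong attachments and directs cytokinesis, fell under almonertinib and under the combination. INCENP (chr11:62123973-62153163, plus strand), the scaffold of the complex, stood at 84.4, 75.3 and 86 CPM in the control libraries, 43.3, 44 and 43.5 under almonertinib, 57.6, 58.4 and 68.2 under paclitaxel and 50.3, 53.8 and 45.8 under the combination in PC9. Every treated library lay below every control, and the almonertinib libraries were the lowest. INCENP fell under almonertinib (-0.91 ± 0.09, adjusted p = 5.64e-07), paclitaxel (-0.41 ± 0.09, adjusted p = 0.00141) and the combination (-0.73 ± 0.09, adjusted p = 7.98e-06). AURKB (chr17:8204733-8210600, minus strand), the kinase of the complex, stood at 117, 110.3 and 121 CPM in the control libraries, 68.5, 70.2 and 94.9 under almonertinib, 96.9, 100.1 and 103 under paclitaxel and 83.8, 74.7 and 78.1 under the combination. All treated libraries lay below the controls, those of paclitaxel least so. AURKB fell under almonertinib (-0.58 ± 0.11, adjusted p = 0.000275) and the combination (-0.58 ± 0.11, adjusted p = 0.000361), and its paclitaxel value was -0.22 (adjusted p = 0.102). BIRC5, which encodes survivin, fell by -0.47, -0.61 and -0.73, and CDCA8, which encodes borealin, by -0.71, -0.48 and -0.74, under almonertinib, paclitaxel and the combination. With the trend removed BIRC5 was -0.17 under almonertinib and not called.

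At the centromere and kinetochore CENPF, CENPE, NDC80, NUF2 and KNL1 rose under each single drug. CENPF, a large coiled-coil protein of the outer kinetochore, was added after its values were seen and stood at 11.2, 13.2 and 6.09 CPM in the control libraries, 34.5, 37 and 20 under almonertinib, 29.3, 29.6 and 31.5 under paclitaxel and 20.6, 23.5 and 12.3 under the combination in PC9. The almonertinib and paclitaxel libraries lay above every control, and the combination libraries overlapped the controls. CENPF rose under almonertinib (1.57 ± 0.27, adjusted p = 0.000102), paclitaxel (1.56 ± 0.26, adjusted p = 0.000171) and the combination (0.86 ± 0.27, adjusted p = 0.0134), the last of these lost without combination library 2 (0.68) or control library 3 (0.60). CENPE, NDC80, NUF2 and KNL1 also rose under almonertinib (1.56, 1.09, 1.21 and 1.26) and under paclitaxel (1.35, 1.23, 1.56 and 1.29), and none of these 4 passed under the combination. With the trend removed, 5 genes of the step were called higher under paclitaxel, SPC24 (below) among them. CENPF, CENPE, NDC80, NUF2 and KNL1 thus did not all keep that call. NDC80 and NUF2 form the microtubule-binding arm of the NDC80 complex.

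The genes of the other arm of that complex, SPC24 and SPC25, were not called higher under either single drug as counted. SPC24 (chr19:11131520-11155808, minus strand) stood at 60.2, 46.2 and 52.1 CPM in the control libraries, 35.6, 35.8 and 59.2 under almonertinib, 68.2, 63.7 and 68 under paclitaxel and 32.2, 31.3 and 30.4 under the combination in PC9. Its combination libraries lay below and its paclitaxel libraries above every control, whereas almonertinib library 3 alone lay among the controls and the other two lay below. SPC24 fell under the combination (-0.78 ± 0.16, adjusted p = 0.000694) and was -0.28 under almonertinib (adjusted p = 0.132) and 0.34 under paclitaxel (adjusted p = 0.076). Without almonertinib library 3 the almonertinib value was -0.56 and called. With the trend removed SPC24 was called higher under paclitaxel. SPC25 fell under the combination (-0.95) and did not pass under either single drug (-0.47 and -0.14), although the paired fit called its almonertinib value (-0.44).

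HJURP (chr2:233833416-233854566, minus strand), the chaperone that loads the centromeric histone CENPA, stood at 39, 39.6 and 39.8 CPM in the control libraries, 22.2, 23.6 and 22.3 under almonertinib, 32.5, 36.5 and 35 under paclitaxel and 17.4, 18.8 and 20.6 under the combination. Each treated group lay below the controls and the combination libraries were the lowest. HJURP fell under almonertinib (-0.80 ± 0.09, adjusted p = 2.55e-06) and the combination (-1.08 ± 0.10, adjusted p = 2.02e-07), and its paclitaxel value was -0.18 (adjusted p = 0.1). CENPA fell under paclitaxel (-0.58) and not under almonertinib (-0.07) or the combination (-0.20), and was 0.22 and called higher under almonertinib with the trend removed.

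The spindle checkpoint genes differed from each other in the same cells. BUB3 (chr10:123154277-123170467, plus strand), the WD-repeat protein that brings BUB1 and BUBR1 to kinetochores, stood at 79.6, 69.1 and 71.9 CPM in the control libraries, 54.6, 58.6 and 51.5 under almonertinib, 66.6, 66 and 64.5 under paclitaxel and 44.1, 48.2 and 43.4 under the combination in PC9. Every treated library lay below every control, and the combination libraries lay below all others. BUB3 fell under almonertinib (-0.43 ± 0.09, adjusted p = 0.000476) and the combination (-0.72 ± 0.09, adjusted p = 4.28e-06) but did not pass under paclitaxel (-0.16, adjusted p = 0.122), where the value was -0.80 and called with the trend removed. BUB1 (chr2:110637698-110678114, minus strand), its partner kinase, stood at 30.3, 27.5 and 22.3 CPM in the control libraries, 37.3, 32.9 and 26.5 under almonertinib, 36.9, 34.2 and 33.3 under paclitaxel and 21.7, 26.5 and 20.7 under the combination. The paclitaxel libraries lay above every control, and the other groups overlapped the controls. BUB1 rose under paclitaxel (0.38 ± 0.14, adjusted p = 0.0263) and was 0.26 under almonertinib and -0.24 under the combination. The almonertinib value was called without almonertinib library 3 (0.40) and in the paired fit (0.26). The paclitaxel call was lost without control library 3 (0.26), without paclitaxel library 1 (0.36) and with the trend removed (0.01).

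MAD2L1, which encodes the MAD2 protein that inhibits CDC20, was given after its values were seen and stood at 11.6, 10.8 and 9.63 CPM in the control libraries, 8.36, 11.3 and 8.47 under almonertinib, 16.9, 13.9 and 14.1 under paclitaxel and 5.81, 4.79 and 4.82 under the combination. Its combination libraries lay below every other PC9 library and its paclitaxel libraries above every control. MAD2L1 fell under the combination (-1.08 ± 0.16, adjusted p = 4.25e-05) and rose under paclitaxel (0.49 ± 0.15, adjusted p = 0.0121), with -0.19 under almonertinib. The paclitaxel call was lost without control library 3 or paclitaxel library 1 (0.41 and 0.41), and the value turned to -0.21 with the trend removed. BUB1B, which encodes BUBR1, rose by 0.60 and 0.78 under the single drugs, and TTK, the kinase that starts checkpoint signalling, by 1.02 and 1.39. Neither passed under the combination (-0.32 and 0.51).

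Of the 6 tested spindle assembly genes, 5 rose under each single drug. CKAP2 (chr13:52455429-52476628, plus strand), a microtubule-stabilising protein of the spindle, stood at 7.45, 8.55 and 7.01 CPM in the control libraries, 23.2, 19.5 and 15.4 under almonertinib, 16.3, 18.7 and 18 under paclitaxel and 11.8, 13.4 and 12.1 under the combination in PC9. Every treated library lay above every control, with the combination between the controls and the single drugs. CKAP2 rose under almonertinib (1.33 ± 0.15, adjusted p = 1.75e-06), paclitaxel (1.21 ± 0.15, adjusted p = 1.21e-05) and the combination (0.68 ± 0.15, adjusted p = 0.00152). HMMR, DLGAP5, ASPM and CKAP2L, all proteins of spindle microtubules or poles, rose by 1.42, 1.40, 1.22 and 1.30 under almonertinib and by 0.99, 0.85, 0.98 and 1.44 under paclitaxel. None of these 4 passed under the combination. TPX2 (chr20:31739271-31801805, plus strand), which activates AURKA on the spindle, stood at 103, 96.5 and 93.5 CPM in the control libraries, 77.4, 73.7 and 63.7 under almonertinib, 89.2, 87.6 and 87.6 under paclitaxel and 63.3, 62.3 and 61 under the combination. Its almonertinib and combination libraries lay well below the controls, and its paclitaxel libraries just below. TPX2 fell under almonertinib (-0.45 ± 0.08, adjusted p = 0.000221) and the combination (-0.67 ± 0.08, adjusted p = 6.72e-06), with -0.14 under paclitaxel (adjusted p = 0.149). With the trend removed, HMMR, DLGAP5 and ASPM were 0.26, 0.21 and 0.07 under paclitaxel and not called.

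The genes that guard and then cut cohesin were mixed. PTTG1 (chr5:160421822-160428744, plus strand), which encodes securin, the inhibitor of separase, stood at 189.7, 187 and 199.5 CPM in the control libraries, 143, 184 and 191 under almonertinib, 107, 118 and 118 under paclitaxel and 145, 117 and 145 under the combination in PC9. The paclitaxel and combination libraries lay below every control, and those of almonertinib overlapped the controls. PTTG1 fell under paclitaxel (-0.74 ± 0.11, adjusted p = 7.03e-05) and the combination (-0.52 ± 0.11, adjusted p = 0.00107), with -0.16 under almonertinib (adjusted p = 0.243), which was 0.17 and called higher with the trend removed. ESPL1 (chr12:53268299-53293643, plus strand), which encodes separase, stood at 57.3, 53.5 and 60.4 CPM in the control libraries, 37.5, 36.4 and 36.9 under almonertinib, 59.2, 53.5 and 55.2 under paclitaxel and 41.7, 36.7 and 38.6 under the combination. Its almonertinib and combination libraries lay below every control and its paclitaxel libraries overlapped the controls. ESPL1 fell under almonertinib (-0.63 ± 0.09, adjusted p = 1.17e-05) and the combination (-0.57 ± 0.09, adjusted p = 4.47e-05), and was -0.02 under paclitaxel (adjusted p = 0.822). SGO2, a shugoshin that protects centromeric cohesin, rose under all 3 treatments (1.54, 1.26 and 0.95). SGO1 rose under paclitaxel (0.58), a call lost without control library 3 or paclitaxel library 2 (0.42 and 0.52). With the trend removed, no gene of this step was called higher under paclitaxel, so the calls of SGO2 and SGO1 were lost there.

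The 4 genes of ubiquitination and mitotic exit fell under every treatment. CDC20 (chr1:43358955-43363203, plus strand), the activator of APC/C at anaphase, stood at 364, 319 and 352 CPM in the control libraries, 244, 262 and 299.6 under almonertinib, 161, 157 and 181 under paclitaxel and 224, 205 and 217 under the combination in PC9. Every treated library lay below every control, with almonertinib closest to them and paclitaxel lowest. CDC20 fell under almonertinib (-0.36 ± 0.10, adjusted p = 0.00396), paclitaxel (-1.05 ± 0.10, adjusted p = 6.34e-07) and the combination (-0.70 ± 0.10, adjusted p = 1.96e-05). UBE2S (chr19:55399745-55407777, minus strand), the enzyme that extends ubiquitin chains on APC/C substrates, stood at 2163, 1969 and 2161 CPM in the control libraries, 1522, 1458 and 2046 under almonertinib, 1048, 1057 and 1264 under paclitaxel and 1082, 1104 and 1151 under the combination. Paclitaxel and combination libraries lay far below the controls, and almonertinib library 3 lay among the controls. UBE2S fell under paclitaxel (-0.90 ± 0.13, adjusted p = 3.85e-05) and the combination (-0.94 ± 0.13, adjusted p = 1.66e-05), and under almonertinib (-0.33 ± 0.13, adjusted p = 0.0357) by a call that was lost without almonertinib library 1 (-0.26) or 2 (-0.23), without control library 1 (-0.31) or 3 (-0.31), and with the trend removed (-0.16). UBE2C, which starts those chains, fell by -0.61, -0.56 and -0.76, and CDCA3, a mitotic entry factor degraded through APC/C, by -0.58, -0.82 and -0.88.

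Both tested cytokinesis genes rose under each single drug, and under the combination neither passed as counted while both were called lower with the trend removed (-0.40 for ANLN and -0.44 for ECT2). ANLN (chr7:36389806-36453791, plus strand), which encodes anillin, the scaffold of the contractile ring, stood at 23.9, 22.8 and 18.2 CPM in the control libraries, 49.8, 39.3 and 29.7 under almonertinib, 39.3, 37.6 and 37.4 under paclitaxel and 18.2, 21.8 and 19.4 under the combination in PC9. The almonertinib and paclitaxel libraries lay above every control, and the combination overlapped the controls. ANLN rose under almonertinib (0.86 ± 0.15, adjusted p = 0.000153) and paclitaxel (0.82 ± 0.15, adjusted p = 0.000355), with -0.15 under the combination (adjusted p = 0.438). ECT2, the exchange factor that activates RhoA at the midzone, rose by 0.41 and 0.71, and stood at -0.14 under the combination. With the trend removed ECT2 was -0.15 and -0.01 and not called, and its almonertinib call was also lost on leaving out any of several libraries, with values of 0.32 (almonertinib 1), 0.36 (almonertinib 2), 0.45 (control 1), 0.45 (control 2) and 0.34 (control 3).

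**Figure D2:**
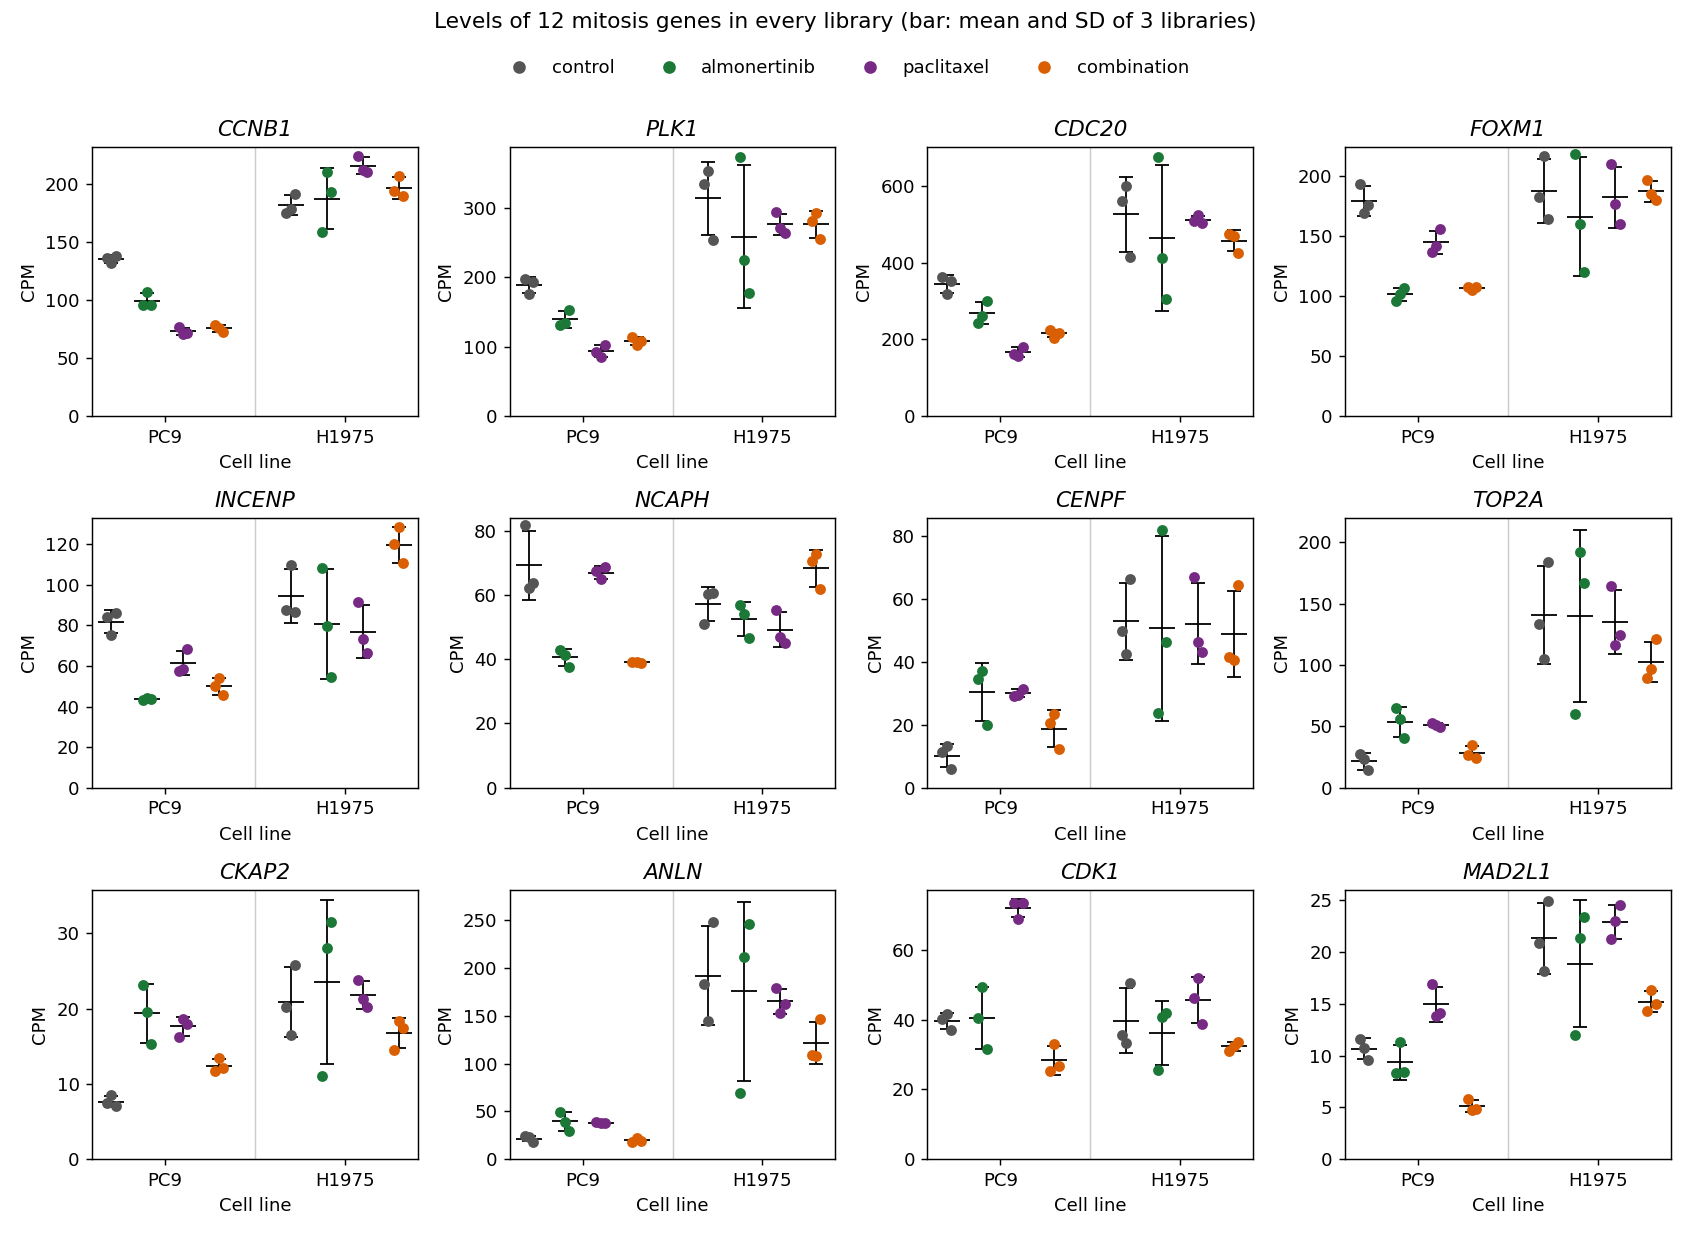
CPM per library (points, vertical axis) with the mean and SD of 3 libraries (bars) of 12 mitosis genes in the 4 treatment groups of PC9 and of H1975. In PC9, CCNB1 lay at 132 to 138 CPM in the controls and at 72.6 to 78.6 CPM under the combination, whereas CENPF was higher in all 6 single-drug libraries than in any control.

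Set directly against each single drug, the combination in PC9 was lower for most members. Against almonertinib alone 33 of 54 were lower and none was higher, with a median log2 difference of -0.49, where 20.1% of all genes were called, 10.3% higher and 9.74% lower. None was higher at an unadjusted p under 0.05 or by DESeq2 either. The lower calls included DLGAP5 (-1.15), CENPE (-1.10), ANLN (-1.01), NCAPG (-0.95) and MAD2L1 (-0.89), while all 4 passenger complex genes and both transcription factors did not pass. That count of 33 was 17 without combination library 1, 20 without combination library 3, 20 without almonertinib library 2 and 7 in a fit of all 24 libraries. Against paclitaxel alone 39 were lower and 2 higher, with a median of -0.64, where 44.1% of all genes were called, 21.7% higher and 22.4% lower. MAD2L1 (-1.56), PBK (-1.55), NCAPG (-1.42) and CDK1 (-1.37) were among the lower, and CDC20 (0.35) and CENPA (0.37) were the higher. With the trend removed CDC20 was not called higher, nor was any gene of its step.

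The single drugs also differed from each other. Paclitaxel against almonertinib gave 17 members higher and 8 lower in PC9, with a median of 0.14. Of all genes 43.1% were called, 21.3% higher and 21.7% lower, so the share of members called in either direction was near that of all genes. MELK (0.92), CDK1 (0.84), MKI67 (0.74) and NCAPH (0.73) were higher under paclitaxel. CDC20 (-0.68), PTTG1 (-0.58), UBE2S (-0.57) and PLK1 (-0.56) were lower under it. Of the 15 tested kinetochore and spindle assembly genes 10 did not pass between the drugs, among them CENPF (-0.01) and CKAP2 (-0.12). With the trend removed, 2 of 9 kinetochore genes were higher and 2 lower, and 4 of 6 spindle assembly genes were lower. The 28 members in the lowest GC class, set out below, went from 7 higher and 1 lower to 6 and 7.

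The interaction is the change under the combination less the sum of the changes under each drug alone. Genes picked because both single drugs raised them are drawn to negative values by those same changes. Their sign is therefore no separate result. Of 54 members 29 had a negative and 11 a positive interaction, with a median of -0.80. Of all genes 45.5% were called, 23.4% negative and 22.1% positive. In the lowest class of transcript GC content, set out below, 26 of 28 members were negative, with a median of -1.88. There 57.9% of all genes of the class were called negative, with a median of -0.88. The most negative were CENPE (-2.45 ± 0.39), SMC2 (-2.32 ± 0.32), NUF2 (-2.31 ± 0.28) and CENPF (-2.27 ± 0.36), so their combination level lay below the sum of the single-drug changes. Reads in the PC9 control libraries were few, at 36, 33 and 15 for CENPE, 81, 78 and 36 for SMC2, and 41, 41 and 22 for NUF2. Among the positive were CDC25B (0.75 ± 0.12), CDC20 (0.72 ± 0.14) and PLK1 (0.63 ± 0.13), whose combined fall was smaller than the sum of the falls. With the trend removed 26 were negative and 7 positive, where 44.4% of all genes were called. All terms of the interaction use the same control libraries.

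The change of a member in PC9 varied with the base composition of its transcript. Spearman's correlation over the 54 members between log2 change and transcript GC content was -0.812 under almonertinib, -0.807 under paclitaxel and -0.683 under the combination, and 0.831 for the interaction. Over all genes the same values were -0.177, -0.5, -0.107 and 0.46. These are correlations across genes that share libraries, and genes are not independent replicates. With the length and GC trend removed from each library the values over members were -0.596, -0.567, -0.542 and 0.606. In H1975, where no member was called, the values over members as counted were -0.624, -0.259, 0.454 and 0.729 in the same order. Over all H1975 genes they were -0.059, -0.102, 0.049 and 0.127. With the trend removed the H1975 members had -0.504, -0.189, 0.147 and 0.48. The composition differences are easily seen in the coding sequence. The central 120 bases of the longest reading frame of 4 members, taken from GENCODE v29 transcripts, are printed 5′ to 3′ with every G and C in capitals, for the members with the lowest transcript GC content, SGO2 and CENPE, and those with the highest, INCENP and MYBL2. They were chosen for that contrast after their values were seen: SGO2 and CENPE rose and INCENP and MYBL2 fell under almonertinib, whereas BUB3, at 41.4% GC, fell as well.
SGO2: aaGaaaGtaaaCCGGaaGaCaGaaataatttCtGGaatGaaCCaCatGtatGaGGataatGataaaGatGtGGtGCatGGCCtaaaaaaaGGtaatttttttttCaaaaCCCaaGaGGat
CENPE: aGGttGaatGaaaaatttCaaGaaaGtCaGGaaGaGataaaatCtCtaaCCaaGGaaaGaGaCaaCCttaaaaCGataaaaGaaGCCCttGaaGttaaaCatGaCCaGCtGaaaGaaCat
INCENP: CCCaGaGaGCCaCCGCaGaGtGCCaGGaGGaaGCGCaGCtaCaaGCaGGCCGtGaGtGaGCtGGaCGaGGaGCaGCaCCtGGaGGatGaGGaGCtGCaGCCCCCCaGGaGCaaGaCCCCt
MYBL2: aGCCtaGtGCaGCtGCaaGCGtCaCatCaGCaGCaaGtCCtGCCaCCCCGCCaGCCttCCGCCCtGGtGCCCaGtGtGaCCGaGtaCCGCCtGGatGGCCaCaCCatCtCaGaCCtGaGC

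In these stretches G and C made up 33.3% in SGO2 and 34.2% in CENPE, against 65.8% in INCENP and 64.2% in MYBL2. All tested genes were split into 4 equal classes by transcript GC content, and 28 of the tested members lay in the lowest class, 31.3% to 42.6%. Within that class 19 rose and 3 fell under almonertinib with a median of 1.00. Of all its genes 47.1% were called higher and 10.5% lower, and their median was 0.46. Under paclitaxel 25 rose and none fell with a median of 1.03, where 59.4% of the class was higher and 5.5% lower, with a median of 0.63. Under the combination 5 rose and 6 fell, with a median of 0.25 against 0.23 for all its genes, of which 29.5% were called higher and 13.4% lower.

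In the class from 49.9% to 57.9% GC, which held 10 members, none rose and 9 fell under almonertinib, with a median of -0.58 against -0.23 for all genes of that class. There 7 fell under paclitaxel and all 10 under the combination, with a combination median of -0.77 against -0.12. Of all genes of that class, 44.3% were called lower under almonertinib, 42.0% under paclitaxel and 35.0% under the combination. The shares called higher were 16.3%, 10.5% and 21.0%. With the trend removed, the lowest class still held 17 higher and 6 lower members under almonertinib (median 0.59), 14 and 3 under paclitaxel (median 0.40), and 4 and 11 under the combination (median -0.05). The share of all genes called was not tallied by class in that fit. Over all 54 members, trend removal gave 21 higher and 22 lower under almonertinib, 17 and 18 under paclitaxel, and 4 and 35 under the combination, with 60.6%, 52.3% and 58.5% of all genes called. The combination was lower for most members in both fits, and the median of the members under paclitaxel moved from 0.39 to 0.04. The GC trend of the libraries moved with the treatment groups, and a change in the cells that depends on composition and one in library making cannot be told apart in this design.

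**Figure D3:**
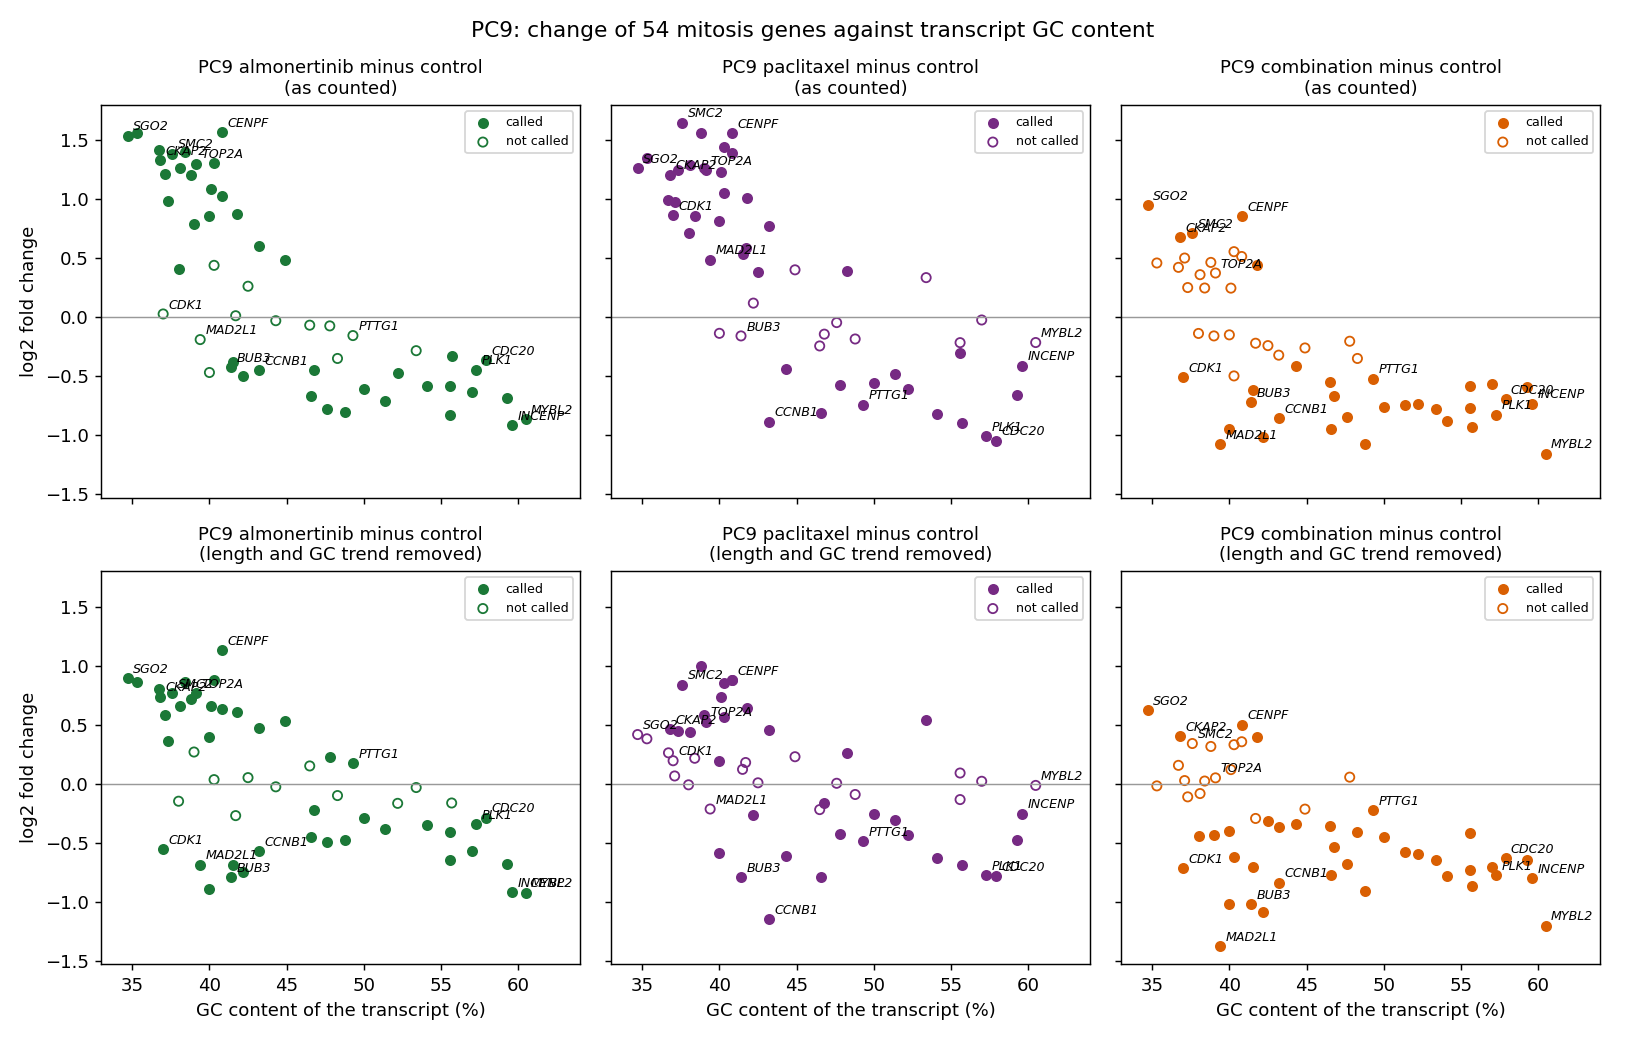
Log2 change against the control in PC9 (vertical axis) against transcript GC content in percent (horizontal axis) for the 54 tested mitosis genes under each treatment, as counted (top) and with the length and GC trend removed (bottom), with filled points for called genes. As counted, the Spearman values are -0.812, -0.807 and -0.683 from left to right, and with the trend removed they are -0.596, -0.567 and -0.542.

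In H1975 no mitosis gene passed in any of 7 comparisons by edgeR. Few genes of any kind passed there: 1.95% of 12345 genes under almonertinib, 0.64% under paclitaxel, 2.46% under the combination (1.77% higher and 0.697% lower), 0% in each of the 3 comparisons between treatments and 0.672% for the interaction. At an unadjusted p under 0.05 there were 0, 1 and 4 members for almonertinib, paclitaxel and the combination against the control, 5 for the combination against almonertinib, 8 against paclitaxel, 1 between the single drugs and 3 for the interaction. DESeq2 called 2 members between the combination and paclitaxel and 0 in the other 6 comparisons. The median log2 changes against the control were -0.07, -0.03 and -0.21, where all genes had 0.02, -0.03 and -0.04. The typical coefficient of variation between repeats was 0.191 in H1975 and 0.111 in PC9.

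Single members show how wide the H1975 libraries spread. TOP2A stood at 133, 105 and 184 CPM in the control libraries, 60.4, 192 and 167 under almonertinib, 164, 116 and 125 under paclitaxel and 89.6, 96.7 and 121 under the combination in H1975. Almonertinib library 1 was the lowest of the 12 while the other two of its group were among the highest, and control library 3 lay above both other controls. CENPF stood at 49.8, 42.6 and 66.5 CPM in the control libraries, 23.8, 82 and 46.3 under almonertinib, 67, 46.3 and 43.3 under paclitaxel and 41.5, 40.6 and 64.6 under the combination, with the same library lowest. CCNB1 was steadier, at 175, 179 and 192 CPM in the control libraries, 159, 211 and 194 under almonertinib, 225, 213 and 211 under paclitaxel and 194, 207 and 189.7 under the combination, and every paclitaxel library lay above every control and every combination library (against the control 0.23, adjusted p = 0.835). The most negative values in the combination were -0.69 ± 0.34 for ANLN, -0.67 ± 0.24 for UBE2S and -0.62 ± 0.21 for MYBL2, with adjusted p of 0.292, 0.155 and 0.134. UBE2S stood at 4885, 4458 and 2999 CPM in the control libraries, 4106, 2471 and 3100.0 under almonertinib, 2567, 4457 and 4411 under paclitaxel and 2644, 2736 and 2499 under the combination, its combination libraries below every control.

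The other members followed library by library had no call in H1975 either. FOXM1 stood at 182, 216 and 164 CPM in the control libraries, 218, 160.0 and 120.0 under almonertinib, 209.8, 177 and 160.1 under paclitaxel and 196, 185 and 179.6 under the combination, and its groups overlapped. MYBL2 stood at 1036, 984 and 688 CPM in the control libraries, 938, 548 and 540.0 under almonertinib, 603, 708 and 715 under paclitaxel and 627, 614 and 553 under the combination, with every combination library below every control. The 2 transcription factors thus had no call in H1975, at -0.03 and -0.62 under the combination. Of the kinases, PLK1 stood at 334, 353 and 253 CPM in the control libraries, 373, 225 and 177 under almonertinib, 293, 271 and 264 under paclitaxel and 280.4, 293 and 255 under the combination. AURKB stood at 317, 323 and 227 CPM in the control libraries, 342, 206 and 168 under almonertinib, 257, 283 and 263 under paclitaxel and 256, 256 and 230.5 under the combination, and for both genes every treated group overlapped the controls. INCENP stood at 87.3, 109.6 and 86.5 CPM in the control libraries, 108, 79.7 and 54.4 under almonertinib, 91.5, 73.1 and 66.2 under paclitaxel and 120.2, 128 and 111 under the combination, with the combination libraries above every control. NCAPH stood at 51, 60.2 and 60.6 CPM in the control libraries, 56.9, 54 and 46.7 under almonertinib, 55.5, 46.9 and 45.2 under paclitaxel and 70.5, 72.8 and 61.9 under the combination, again with the combination above every control. Those 2 genes had combination values of 0.32 and 0.23 in H1975, neither called, where PC9 had -0.73 and -0.85.

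At the kinetochore, SPC24 stood at 188, 156 and 134 CPM in the control libraries, 169, 112 and 126 under almonertinib, 112, 154 and 163 under paclitaxel and 119, 114 and 107 under the combination in H1975, the combination below every control (-0.51, adjusted p = 0.147). HJURP stood at 33.4, 38.1 and 43.1 CPM in the control libraries, 36.5, 42.4 and 41.1 under almonertinib, 42.8, 47.5 and 39.5 under paclitaxel and 44.1, 48.9 and 41.7 under the combination, the combination libraries overlapping the controls. Of the checkpoint genes, BUB1 stood at 63.4, 59.9 and 82.2 CPM in the control libraries, 36.8, 77 and 78.4 under almonertinib, 65.2, 57.2 and 52.5 under paclitaxel and 52.1, 52.4 and 59.9 under the combination and was lowest in almonertinib library 1. BUB3 was steadier than BUB1 apart from that library, at 125, 123 and 132 CPM in the control libraries, 94.6, 124 and 133 under almonertinib, 124, 134 and 129.6 under paclitaxel and 119, 125 and 119.5 under the combination. Among spindle genes, TPX2 stood at 139, 138 and 163 CPM in the control libraries, 119, 159 and 126 under almonertinib, 149.9, 123 and 118 under paclitaxel and 164, 174 and 157 under the combination. CKAP2 stood at 20.3, 16.6 and 25.8 CPM in the control libraries, 11.1, 28 and 31.4 under almonertinib, 23.8, 21.3 and 20.2 under paclitaxel and 14.6, 18.4 and 17.4 under the combination, its almonertinib library 1 the lowest of 12 and the other two of that group the highest.

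Neither securin nor separase passed in any H1975 comparison. PTTG1 stood at 159, 179.9 and 146 CPM in the control libraries, 159.8, 147 and 138 under almonertinib, 179, 213 and 229 under paclitaxel and 165, 163 and 174 under the combination, its paclitaxel value of 0.34 not passing (adjusted p = 0.523). ESPL1 stood at 140.5, 164 and 138 CPM in the control libraries, 188, 130.0 and 88 under almonertinib, 162, 125 and 114 under paclitaxel and 195, 190.0 and 156 under the combination, its almonertinib libraries spanning the whole range of the controls and more. CDC20 stood at 562, 601 and 416 CPM in the control libraries, 677, 412 and 305 under almonertinib, 509, 524 and 505 under paclitaxel and 476, 471 and 426 under the combination, and the combination value was -0.23. ANLN stood at 183, 145 and 248 CPM in the control libraries, 69.1, 212 and 246 under almonertinib, 179, 153 and 162 under paclitaxel and 109, 108 and 147 under the combination, with almonertinib library 1 far below the other two of its group. For ANLN the combination value of -0.69 did not pass.

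Without the 3 H1975 libraries that stood apart (almonertinib 1, control 3 and paclitaxel 1), an alternative chosen after the data were seen, calls appeared in H1975. Under almonertinib 22 members were higher and 13 lower, under paclitaxel 1 and 2, and under the combination 4 and 13. The higher members under almonertinib then included CENPE (0.64), TOP2A (0.61), ANLN (0.49) and SMC4 (0.47), all negative with all libraries kept. Leaving out the same libraries and removing the trend gave 2 higher and 14 lower under almonertinib, 0 and 4 under paclitaxel, and 2 and 10 under the combination. The higher calls of almonertinib in H1975 thus rested on which libraries were kept and on the GC trend, and groups of 2 libraries remained. Leaving out almonertinib library 1 alone gave 6 called members under almonertinib, 18 for the combination against almonertinib and 9 for the interaction. The share of all genes called was not tallied in any of these fits with H1975 libraries left out. Whether the members exceeded that share is therefore not known.

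**Figure D4:**
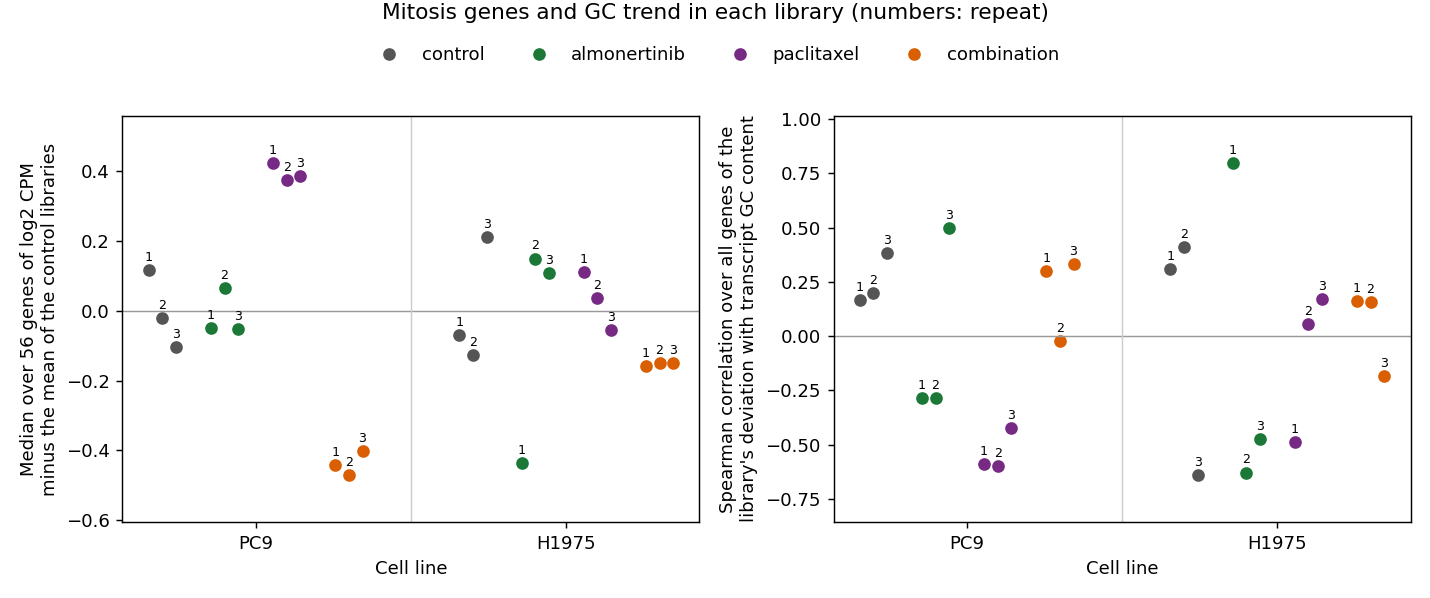
For each of the 24 libraries (points, coloured by treatment and numbered by repeat), the median log2 difference of the 56 mitosis genes from the mean of the control libraries of the line (left panel) and the Spearman correlation of the library's deviation with transcript GC content (right panel). H1975 almonertinib library 1 lies apart at -0.437 on the left and 0.799 on the right, and the 3 PC9 combination libraries lie at -0.472 to -0.403 on the left.

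The response to each treatment was compared between the lines in a fit of all 24 libraries, as PC9 minus H1975, where the doses differ too. For almonertinib 4 members had a higher and 8 a lower response in PC9, where 16.6% of all genes were called, 5.53% higher and 11% lower. For paclitaxel 12 were higher and 8 lower, where 17.1% were called (9.9% and 7.21%), and for the combination 1 higher and 18 lower, where 18% were called (6.99% and 11%). CCNB1 had a lower response in PC9 to all 3 treatments (-0.50 ± 0.15, adjusted p = 0.0284 for almonertinib; -1.11 ± 0.15, adjusted p = 5e-05 for paclitaxel; -0.95 ± 0.15, adjusted p = 0.00014 for the combination). AURKA did so too (-0.64, -0.80 and -1.21). HJURP had a lower response in PC9 to almonertinib (-0.88 ± 0.17, adjusted p = 0.000649) and to the combination (-1.29 ± 0.17, adjusted p = 1.06e-05). CKAP2 had a higher response in PC9 to all 3 treatments (1.15, 1.17 and 1.01).

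Higher responses to paclitaxel in PC9 were found for SMC2 (1.71), CENPF (1.61), NUF2 (1.60) and SMC4 (1.50), and lower ones for PTTG1 (-1.07) and CDC20 (-0.99). The counts moved with single libraries. The almonertinib count of 12 was 23 without H1975 almonertinib library 3, 7 without H1975 control library 1, and 5 or 6 without H1975 control library 3, PC9 almonertinib library 1 or 2, or PC9 control library 1 or 3. The paclitaxel count of 20 was 7 to 11 without H1975 control library 3, H1975 paclitaxel library 2 or 3, PC9 control library 3, or PC9 paclitaxel library 1 or 2. The combination count of 19 was 10 to 12 without H1975 control library 1, H1975 combination library 1 or 2, PC9 control library 1, or PC9 combination library 2.

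A wider list of 111 further mitosis genes, covering APC/C, cohesin, the other condensin subunits, more kinetochore proteins, the entry brakes, DREAM and MuvB, and more spindle and cytokinesis genes, was measured in the same fits. In PC9, 26 of 110 tested rose and 35 fell under almonertinib, 46 rose and 25 fell under paclitaxel, and 14 rose and 49 fell under the combination, against the shares of all genes given above. Cohesin genes, which hold sister chromatids together, rose most often under paclitaxel: 10 of 12 rose and 1 fell, with a median of 1.05. All but SMC1A, MAU2 and CDCA5 lie in the lowest class of transcript GC content. In that class 59.4% of all genes rose under paclitaxel, with a median of 0.63. No values with the trend removed are given for this list, so a cohesin response and that wider shift cannot be told apart here. STAG2, a cohesin subunit, rose by 1.89 under almonertinib, 1.81 under paclitaxel and 1.29 under the combination, and PDS5B, a cohesin regulator, by 1.60 under almonertinib. KNTC1, a kinetochore protein of the corona, rose under paclitaxel (1.63).

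Among those that fell, CDC25A, the phosphatase of S phase and mitotic entry, fell under almonertinib (-2.13 ± 0.14, adjusted p = 2.63e-09) and the combination (-2.13 ± 0.14, adjusted p = 6.15e-09). CENPO, of the inner kinetochore, fell under almonertinib (-1.33), and FAM83D and CKS2 under paclitaxel (-0.98 and -0.90). ZWINT, which joins KNL1 at the outer kinetochore, fell under the combination (-1.56), where RBL2, the p130 pocket protein of the DREAM repressor, rose (0.88). Of 29 inner and outer kinetochore genes on this list 2 rose and 16 fell under the combination, with a median of -0.50, and all 4 other condensin subunits fell. In H1975 only MAD1L1, the checkpoint partner of MAD2, passed, and it fell under the combination (-0.94 ± 0.23, adjusted p = 0.0431). MAD1L1 did not pass the filter on low counts in PC9 and was not tested there.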

How the data were processed

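RNA was measured in 24 libraries, 3 in each of 8 groups, made with a SMART-RNAseq kit from TRIzol extracts, as the labels state. The authors deposited whole-number read counts per Ensembl gene without normalisation. The submitters' processing notes name HISAT2 2.2.1, HTSeq and the build GRCh38, without saying which step each was used for. HTSeq's annotation, strand setting and version are not given in the sources used here, so antisense reads may have been counted in some genes. Symbols, positions, transcript lengths and GC content came from GENCODE v29 on GRCh38, and promoters from RefSeq on GRCh38.p14.

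Counts were fitted per line with edgeR 4.0.16 in R 4.3.3 (quasi-likelihood test, filterByExpr, TMM factors, 12 libraries a line, 12796 genes in PC9 and 12345 in H1975). Responses of the lines were compared in 1 fit of 24 libraries (13380 genes). P-values were two-sided and Benjamini-Hochberg adjusted over all genes of each of 17 comparisons, and called means an adjusted p under 0.05. The script was tested on simulated counts. Counting error was small at these totals for all but the lowest members. CPM are counts scaled with TMM factors over 24 libraries, and per-kb levels divide by transcript length.

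Alternatives were DESeq2 1.42.0, RLE factors, a stricter filter or none, a replicate block, a fit of 24 libraries, only the groups compared, each library left out, and a spline over transcript length and GC content (5 degrees of freedom) removed from each library. After the data were seen, fits without H1975 almonertinib 1, control 3 and paclitaxel 1 were added, whose GC correlation differed by over 0.5 from both others of their group, and the trend was removed with these or with PC9 almonertinib 3 left out.

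Deviations of libraries with the same repeat number had correlations of 0.119, 0.106 and 0.394 for PC9 control with almonertinib, and of 0.11, 0.169 and 0.345 for H1975 control with the combination, from within-line log CPM, all over 0.1. No other pair of groups in a line did so, although PC9 control with paclitaxel came near, at 0.124, 0.116 and 0.096. The labels do not say that a number marks a shared culture or day.

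The members and gene lists were chosen with earlier results of these data known. Within each step, library values and full tests are given for the member with the highest level per kb and the member with the smallest p against the control, by rule; members added after their values were seen are marked as such.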

Additional observations from a re-analysis of the deposited data

Results flagged for a closer look

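Each result below was picked out because the response to a treatment differed between PC9 and H1975 in edgeR's fit of all 24 libraries, as PC9 minus H1975 on the log2 scale at an adjusted p under 0.05. PC9 and H1975 were given each single drug at unequal doses, so line and dose cannot be told apart. For almonertinib 12 members differed, among them FOXM1 (-0.655), NCAPH (-0.652), HJURP (-0.875), CCNB1 (-0.496) and INCENP (-0.692), whose response was lower in PC9, and CKAP2 (1.148), whose response was higher. For paclitaxel 20 differed, among them CDC20 (-0.99), CCNB1 (-1.113), PTTG1 (-1.073) and PLK1 (-0.805) with a lower response in PC9 and CKAP2 (1.173) with a higher one. For the combination 19 differed. TPX2 (-0.82), FOXM1 (-0.749), NCAPH (-1.085), HJURP (-1.295), CCNB1 (-0.955), ESPL1 (-0.839), INCENP (-1.059), BUB3 (-0.642) and PTTG1 (-0.556) had a lower response in PC9, and CKAP2 (1.012) a higher one.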

How the results depend on the processing

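In PC9 the counts of called members kept within 1.5 times under every alternative run, except for the combination against almonertinib: 33 became 7 in a fit of all 24 libraries and 18 with only the groups compared, and 17 to 37 with a library left out. In H1975, where the count was 0 throughout, removing the length and GC trend gave 2 under almonertinib, 1 under paclitaxel, 3 under the combination and 1 for the interaction. Of all genes, 8.69%, 3.85%, 14.4% and 3.05% were called there in the same order. The combination against the control gave 2 in the fit of 24 libraries and 11 with only the groups compared, and against paclitaxel 2 by DESeq2, 3 in the fit of 24 libraries and 10 with only the groups compared. Leaving out a library gave 0 to 6 under almonertinib, 0 to 18 for the combination against almonertinib, 0 to 1 against paclitaxel and 0 to 9 for the interaction. Without the 3 libraries that stood apart, the counts against the control were 35, 3 and 17 for almonertinib, paclitaxel and the combination, 39 for the combination against almonertinib, 18 against paclitaxel, 34 between the single drugs and 32 for the interaction, and with the trend removed as well 16, 4, 12, 19, 15, 9 and 14. Between the lines the almonertinib count of 12 was 26 with the trend removed, 22 with that and the 3 libraries left out, 1 with only the groups compared, and 5 to 23 with a library left out. The paclitaxel count of 20 was 33 with only the groups compared and 33 without the 3 libraries, and 7 to 26 with a library left out. The combination count of 19 was 33 with only the groups compared and 10 to 18 with a library left out. The share of all genes called was tallied for the main fit and for the fit with the trend removed, not for the other alternatives. The cause was not tested.

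Direction turned for some members, called ones included. In PC9 with the trend removed, ECT2 was -0.149 under almonertinib and -0.01 under paclitaxel, CENPA 0.224, PTTG1 0.173 and CDK1 -0.556 under almonertinib, and CCNA2 -0.262 and MAD2L1 -0.215 under paclitaxel; of these, ECT2 under both drugs and MAD2L1 had been called higher. Without PC9 almonertinib 3 as well, ECT2 was -0.172 and CDK1 -0.524. Without the 3 H1975 libraries, values under almonertinib turned to 0.494 for ANLN, 0.471 for SMC4, 0.61 for TOP2A, 0.635 for CENPE, 0.342 for BUB1B and 0.35 for BUB1. The paired fit with a replicate block gave 46, 43 and 39 called members in PC9 for almonertinib, paclitaxel and the combination, 0 in each H1975 comparison, and 17, 23 and 21 between the lines. It moved no count by over 1.5 times. In PC9 it ended no call against the control and added MKI67 (-0.37), SPC25 (-0.44), PBK (0.45) and BUB1 (0.26) under almonertinib. Depth limits the least abundant members, above all NUSAP1 and PRC1.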
